A study of Mus musculus with 36 samples.

Results

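The genes of the MHC class II pathway were followed through 2 tables of RNA-seq counts from RAW264.7, a mouse macrophage line. The 9 genes were listed by name, with no threshold on their values: Ciita, H2-Aa, H2-Ab1, H2-Eb1, H2-Ea-ps, H2-DMa, H2-DMb1, H2-DMb2 and Cd74. All 9 were present in both tables, of 49568 gene rows in each. The study asked how short peptides from the third allelic hypervariable region of the human HLA-DRβ chain act on macrophage polarization. The peptide 65–79*SE corresponds to a susceptibility allele of HLA-DRB1 and 65–79*PE to a protective one. Each table held 18 libraries, 6 per group: PBS, 65–79*SE and 65–79*PE. The peptide groups were given IFNγ (the M1 condition) in one table and Il-4 (the M2 condition) in the other.

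The 3 groups of the IFNγ table were cells labelled PBS, cells given 65–79*SE with IFNγ, and cells given 65–79*PE with IFNγ. The Il-4 table had the same 3 groups, with Il-4 in place of IFNγ. Peptides were used at 100 µg/ml and cytokines at 5 ng/ml, and all cultures ran for 72 h. The labels and methods did not settle whether the PBS cells received the cytokine. The summed level of 10 other IFNγ response genes (Gbp2, Gbp3, Gbp5, Igtp, Irgm1, Iigp1, Cxcl9, Cxcl10, Irf1 and Socs1) was 60.6 to 73.8 CPM (counts divided by the library's total after TMM scaling, brought to a common total) in the PBS libraries of the IFNγ table and 62.0 to 95.3 CPM in those of the Il-4 table. The summed level of 8 Il-4 response genes was 0.297 to 0.669 CPM in the PBS libraries of the Il-4 table and 35.3 CPM or more in every peptide library of that table. In a comparison with PBS, peptide and cytokine therefore cannot be told apart. All libraries came from 1 cell line, so p-values measure the spread between these cultures. They may not cover the spread between animals or between independent experiments.

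Replicates 1–3 and 4–6 of each group were named by different schemes in the labels and are given apart. The paper describes biological replicates from more than 1 independent experiment, without saying which replicates belong to which. If the sets are those experiments, a test within a set does not measure the spread between experiments. The libraries labelled 65–79*SE with IFNγ, replicates 4–6, went against their label. Their summed level of the 10 IFNγ response genes was 55.5 to 63.7 CPM, against 65.7 to 73.8 CPM with PBS in replicates 4–6, 535 to 616 CPM in replicates 1–3 of the same group and 428 to 673 CPM with 65–79*PE and IFNγ. They are called here the libraries labelled 65–79*SE with IFNγ, replicates 4–6, and no peptide effect is read from them. Totals were 20.67 to 63.16 M counts per library in the IFNγ table and 17.05 to 30.64 M in the Il-4 table. A count of 0 in a group of 3 libraries allows up to 3 counts over that group. Of 7 macrophage markers checked, 6 were present in every library and Mertk was near 0. Ms4a1 and Pax5, B cell markers, were each at 0 in 14 of 18 libraries of the IFNγ table and 17 of 18 of the Il-4 table, and 4 markers of B cells, which make class II without IFNγ, summed to at most 0.323 CPM. The 5 dendritic cell markers summed to at most 2.57 CPM, the 4 T cell markers to 0.726 CPM and the 3 stromal markers to 1.25 CPM. The macrophage markers summed, in the IFNγ table, to 6153 to 7136 CPM with PBS, 4963 to 5398 with 65–79*SE and 4293 to 4383 with 65–79*PE in replicates 1–3, and to 3501 to 4866, 6242 to 7106 and 5246 to 5950 CPM in replicates 4–6, and their part in the results was not tested.

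MHC class II molecules are pairs of an α and a β chain that carry peptides to the cell surface for CD4 T cells. In mice H2-Aa and H2-Ab1 encode the chains of I-A, and H2-Ea and H2-Eb1 those of I-E. Cd74, the invariant chain, fills the groove during assembly and guides the complex to endosomes, where H2-DM, a dimer of H2-DMa and H2-DMb chains, exchanges the last piece of Cd74 for other peptides. Ciita is the transactivator of these genes. It does not bind DNA itself but is held at their promoters by factors on the X and Y boxes. Resting macrophages carry little class II, and IFNγ is known to raise it through Irf1 and Ciita.

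The promoter letters of the class II genes are shown because the 9 genes moved together under IFNγ. RefSeq windows of 300 bases (build GRCm38.p6, from 250 before each gene's start) were given for 5 of the 9 genes, and none was given for Ciita, H2-Ab1, H2-Ea-ps and Cd74. In 4 of these 5 genes an X box-like run stood 10 to 30 bases before a Y box, and the windows of H2-DMa held neither. The stretches of H2-Aa (chr17:34287855-34287914, minus strand), H2-Eb1 (chr17:34305766-34305824, plus strand) and H2-DMb2 (chr17:34145116-34145175, plus strand) are printed 5′ to 3′, and capitals mark the X box-like run and then the Y box.

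H2-Aa: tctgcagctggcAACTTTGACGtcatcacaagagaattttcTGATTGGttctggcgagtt

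H2-Eb1: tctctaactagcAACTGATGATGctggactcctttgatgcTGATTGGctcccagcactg

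H2-DMb2: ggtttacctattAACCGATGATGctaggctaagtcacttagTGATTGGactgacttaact

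The gap between the boxes was 19 bases in H2-Aa, 17 in H2-Eb1 and 18 in both H2-DMb2 and H2-DMb1, which is not printed. The X box-like run began 79 bases upstream of the RefSeq start of the window in H2-Aa, 89 in H2-Eb1, 92 in H2-DMb1 and 121 in H2-DMb2. In H2-DMb1 and H2-DMb2 that start lies inside the gene as GENCODE annotates it, so these stretches are downstream of the first base given for those genes below. The X box-like run was searched as AAC, then 2 or 3 bases, then TGA, any base and G, and the Y box as TGATTGG, both on both strands. These letters were chosen after the sequences had been seen. Of 32851 mouse windows of that length, 5.77% held the X box-like run, 7.82% the Y box and 0.0487%, or 16 windows, both in that order and spacing. A match describes letters and is not evidence of binding.

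Of the genes' positions in GENCODE M21 (GRCm38), 7 lie close together on chromosome 17: H2-DMa (34119541 to 34139101), H2-DMb2 (34143307 to 34151555), H2-DMb1 (34153072 to 34160230), H2-Ab1 (34257689 to 34269419), H2-Aa (34282744 to 34287823), H2-Eb1 (34305867 to 34316674) and H2-Ea-ps (34341959 to 34344645). Ciita is on chromosome 16 (10480059 to 10528418) and Cd74 on chromosome 18. H2-DMb1 and H2-DMb2 have coding sequences of 786 bases each that are identical at 754 positions (95.9%), so their counts could have been split or lost between the copies and are uncertain. H2-Ea-ps is annotated as a polymorphic pseudogene, named for the reference strain, in which H2-Ea is not expressed. RAW264.7 comes from BALB/c mice, which carry another MHC haplotype than that strain, and the part of this in the counted levels was not tested.

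In the IFNγ table, Ciita was all but absent with PBS and present with either peptide in replicates 1–3. With PBS it was at 0.0280, 0 and 0.0311 CPM in replicates 1–3 and at 0.0361, 0.0788 and 0 in replicates 4–6. With 65–79*SE it was at 9.78, 7.93 and 8.93 CPM in replicates 1–3, and in the libraries labelled 65–79*SE with IFNγ, replicates 4–6, at 0.0476, 0.0552 and 0. With 65–79*PE it was at 13.6, 13.4 and 12.4 CPM in replicates 1–3 and 20.5, 26.0 and 27.3 in replicates 4–6. All peptide libraries of replicates 1–3 and the 65–79*PE libraries of replicates 4–6 thus lay above PBS with no overlap, while the libraries labelled 65–79*SE with IFNγ, replicates 4–6, overlapped PBS. In pooled counts of replicates 1–3 Ciita was 448-fold higher with 65–79*SE than with PBS (95% counting interval 124 to 3707, from 963 counts against 2) and 662-fold higher with 65–79*PE (183 to 5473). In bulk samples, fewer expressing cells and less RNA per cell cannot be told apart. These intervals, and those of pooled counts below, come from reads pooled over the libraries of a group. They hold only the error of counting and leave out the spread between libraries. Without molecular identifiers a read need not stand for a separate molecule either.

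The chains of I-A were also near 0 with PBS and high with either peptide in replicates 1–3. H2-Ab1, the β chain, was between 0.165 and 0.473 CPM in the 6 PBS libraries. It was at 309, 337 and 347 CPM with 65–79*SE in replicates 1–3 and at 587, 557 and 523 CPM with 65–79*PE. The values in replicates 4–6 were 699, 563 and 634 CPM with 65–79*PE and 0.476, 0.276 and 0.169 in the libraries labelled 65–79*SE with IFNγ. The 65–79*SE libraries of replicates 1–3 were thus all below the 65–79*PE libraries and all above PBS. H2-Aa, the α chain, was between 0.0236 and 0.276 CPM with PBS. It was at 522, 523 and 593 CPM with 65–79*SE and at 877, 820 and 785 CPM with 65–79*PE in replicates 1–3. Replicates 4–6 gave 556, 415 and 448 CPM with 65–79*PE, and 0.191, 0 and 0 in the libraries labelled 65–79*SE with IFNγ. The order of the groups in replicates 1–3 was that of H2-Ab1, and pooled counts of H2-Aa were 4595-fold (2631 to 8894) and 6947-fold (3977 to 13445) above PBS with 65–79*SE and 65–79*PE.

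The chains of I-E gave the same order. H2-Eb1 was between 0.0236 and 0.606 CPM with PBS, at 637, 691 and 703 CPM with 65–79*SE and at 982, 940 and 877 CPM with 65–79*PE in replicates 1–3. Replicates 4–6 had 724, 544 and 591 CPM with 65–79*PE and between 0.271 and 0.333 CPM in the libraries labelled 65–79*SE with IFNγ. The transcript counted under H2-Ea-ps was at or below 0.0623 CPM with PBS, at 116, 110 and 138 CPM with 65–79*SE and at 188, 169 and 158 CPM with 65–79*PE. It was listed at 0 in all 3 libraries labelled 65–79*SE with IFNγ, replicates 4–6, and at 157, 103 and 105 CPM with 65–79*PE. It had 13213, 18168 and 11096 counts in the 3 groups where the other chains were high. It was at least 2690-fold higher with 65–79*PE than in those 3 libraries, by a floor of 3 counts over the group.

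**Figure D1:**
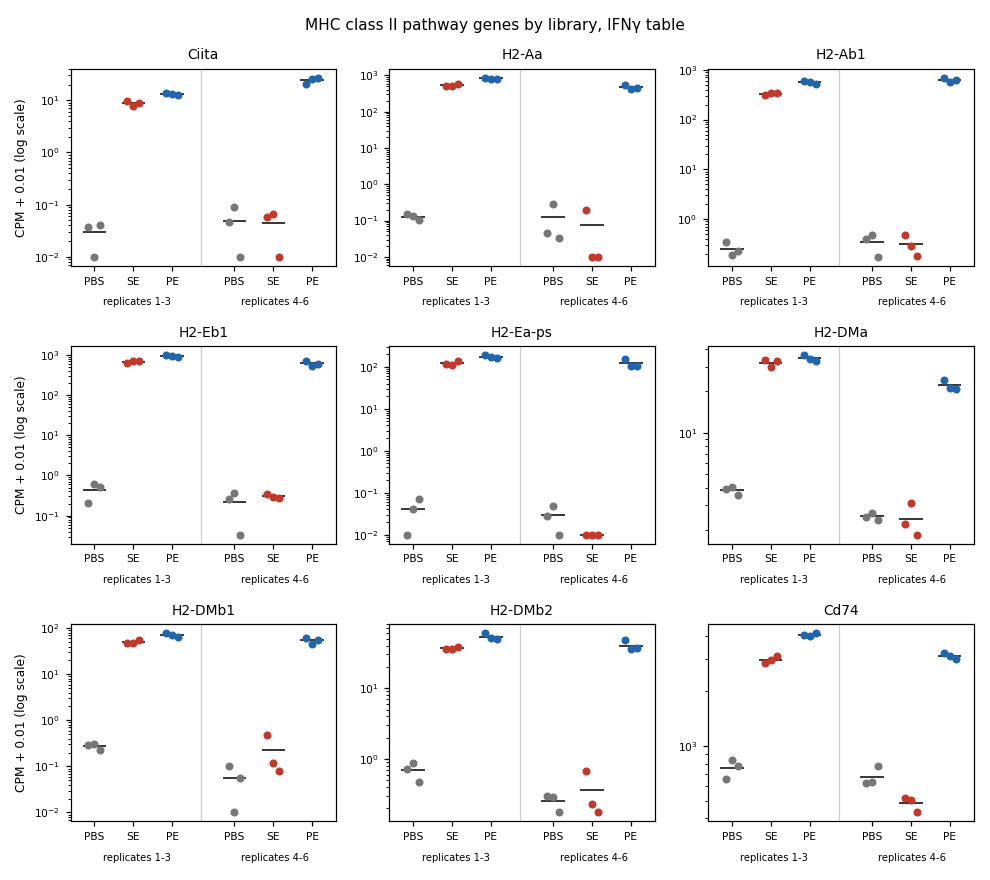
Level of each of the 9 genes in the 18 libraries of the IFNγ table. The y axis is CPM plus 0.01 on a log scale, each point is a library and each line a mean of 3 libraries. PBS, 65–79*SE (SE) and 65–79*PE (PE) are drawn apart for replicates 1–3 and 4–6. In all 9 panels PE lies above PBS in both sets and SE does so in replicates 1–3, while the libraries labelled SE, replicates 4–6, overlap PBS for 8 genes and lie below it for Cd74.

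H2-DMa and Cd74 were already counted with PBS and changed by less. H2-DMa, the α chain of the peptide exchange factor, was at 3.89, 4.03 and 3.55 CPM with PBS, 33.5, 30.0 and 32.6 CPM with 65–79*SE and 36.1, 34.0 and 32.9 CPM with 65–79*PE in replicates 1–3. The peptide groups overlapped each other and both lay above PBS, by 8.37-fold (7.54 to 9.33) and 8.96-fold (8.07 to 9.98) in pooled counts. In replicates 4–6 it was at 24.0, 21.0 and 20.7 CPM with 65–79*PE, 2.45, 2.64 and 2.34 with PBS and 2.19, 3.09 and 1.83 in the libraries labelled 65–79*SE with IFNγ, so the latter 2 groups overlapped. Its partners H2-DMb1 and H2-DMb2 were at most 0.303 and 0.878 CPM with PBS. In replicates 1–3 they ranged from 46.9 to 54.4 and from 35.2 to 38.7 CPM with 65–79*SE, and from 64.4 to 78.2 and from 49.4 to 59.9 CPM with 65–79*PE. Both were lower in every 65–79*SE library than in any 65–79*PE library. In replicates 4–6 they ranged from 46.4 to 62.4 and from 35.3 to 47.4 CPM with 65–79*PE, and in the libraries labelled 65–79*SE with IFNγ they were at most 0.476 and 0.667 CPM.

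Cd74 was high in every library. With PBS it was at 658, 841 and 772 CPM in replicates 1–3, with 65–79*SE at 2856, 2971 and 3094 CPM and with 65–79*PE at 4058, 4014 and 4154 CPM. The 3 groups did not overlap. Pooled counts were 3.95-fold (counting interval 3.92 to 3.98) and 5.40-fold (5.36 to 5.45) those of PBS. In replicates 4–6 Cd74 was at 3217, 3116 and 2993 CPM with 65–79*PE, 624, 632 and 779 CPM with PBS and 517, 506 and 431 CPM in the libraries labelled 65–79*SE with IFNγ. There every library so labelled was below every PBS library.

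In the edgeR quasi-likelihood test, a call needed a change over 1.5-fold and an adjusted p (Benjamini-Hochberg, over all 16845 genes tested) under 0.05. With 65–79*SE against PBS in replicates 1–3, 9 of 9 class II genes rose, and 11.0% of all genes were called higher. The log2 fold changes ran from 1.97 (standard error 0.098) for Cd74 and 3.06 (0.12) for H2-DMa to 12.12 (0.26) for H2-Aa, with a median of 8.56 against -0.04 for all genes. With 65–79*PE against PBS in replicates 1–3, 9 of 9 rose, against 8.38% of all genes, and the median was 9.12 against -0.04 for all genes. With 65–79*PE against PBS in replicates 4–6, 9 of 9 rose, against 6.40% of all genes, with a median of 9.82, a log2 fold change of 2.20 (0.098) for Cd74 and 9.41 (0.29) for Ciita. In these 3 comparisons every peptide library was above every PBS library for 9 of 9 genes, as for 24.3%, 22.6% and 19.0% of all genes. Comparisons within a set share their PBS libraries. For genes near 0 with PBS the fitted values depend on the prior count, and the pooled ratios above give their counting error.

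For the libraries labelled 65–79*SE with IFNγ, replicates 4–6, edgeR called 0 of 9 genes against PBS, while 2.04% of all genes were called. At an unadjusted p under 0.05 there were 2, H2-DMb1 and Cd74, and DESeq2 called 0. Cd74 was lower at an adjusted p of 0.00737, with a log2 fold change of -0.49 (standard error 0.095) that is under 1.5-fold, and 12.1% of all genes were lower in every such library than in every PBS library. H2-DMb1 had 14 counts over the 3 libraries against 7 with PBS (adjusted p = 0.20). The adjusted p was 0.66 or more for the other 7 genes. The difference of 65–79*SE against PBS between the sets of replicates passed the test for 9 of 9 genes, all lower in replicates 4–6, against 11.6% of all genes. It was -2.46 (standard error 0.14) for Cd74 and -3.16 (0.19) for H2-DMa on the log2 scale.

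The 65–79*PE comparison with PBS did not differ between the sets at the threshold for any of the 9 genes (0 called by edgeR, 2 at an unadjusted p under 0.05 and 2 called by DESeq2), while 5.74% of all genes differed. The largest differences were in H2-DMb1, where the log2 fold change was 1.78 higher in replicates 4–6 (standard error 0.67, adjusted p = 0.091), and H2-DMb2, where it was 1.05 higher (0.40, adjusted p = 0.099). For Cd74 the difference was -0.23 (0.13, adjusted p = 0.28). A p above the threshold does not show that the sets were alike.

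**Figure D2:**
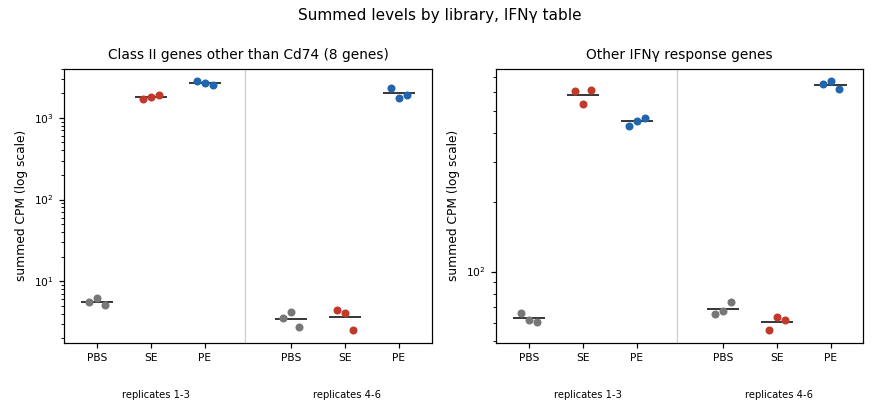
Summed CPM per library in the IFNγ table on a log scale, for the 8 class II genes other than Cd74 (left) and the 10 other IFNγ response genes (right). Points are libraries and lines are means of 3. The libraries labelled SE, replicates 4–6, sit at 2.50 to 4.38 and 55.5 to 63.7 CPM, near PBS in both panels. Within replicates 1–3, SE is below PE on the left (1711 to 1916 against 2502 to 2821 CPM) and above it on the right. A sum does not give the order of each gene, and Irf1 was lower with SE.

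The peptides were given at the same dose and time and were compared directly as 1 pair per table and set of replicates, first in replicates 1–3 of the IFNγ table. All 9 class II genes had a lower value with 65–79*SE than with 65–79*PE, and the median log2 fold change was -0.51 against 0.00 over all genes, of which 48.7% were below 0. The test called 2 of 9 lower, against 1.23% of all genes. They were H2-Ab1 at -0.75 (standard error 0.10, 95% interval -0.96 to -0.53, adjusted p = 4.41e-05) and H2-Aa at -0.60 (0.13, -0.87 to -0.33, adjusted p = 0.00298). At an adjusted p under 0.05 whatever the fold, 8 of 9 were lower, against 7.43% of all genes. Besides the I-A chains these were Ciita at -0.56 (standard error 0.14, adjusted p = 0.00777), H2-DMb2 at -0.55 (0.13, 0.00573), H2-DMb1 at -0.51 (0.13, 0.00744), H2-Ea-ps at -0.50 (0.14, 0.0154), H2-Eb1 at -0.46 (0.13, 0.0159) and Cd74 at -0.45 (0.094, 0.00199). In the same 8 genes every 65–79*SE library was below every 65–79*PE library, which 19.5% of all genes also showed.

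H2-DMa did not pass the test, with a log2 fold change of -0.10 (standard error 0.098, 95% interval -0.31 to 0.10, adjusted p = 0.54). In linear terms 65–79*PE was above 65–79*SE by 1.68-fold for H2-Ab1, 1.51-fold for H2-Aa, 1.48-fold for Ciita, 1.37-fold for Cd74 and 1.07-fold for H2-DMa in pooled counts. The count of 2 changed with 1 replicate number, that is 1 library of each group, left out: it was 1 without replicate 2 and 5 without replicate 3, and the count of 8 was 3 without replicate 1, 4 without replicate 2 and 6 without replicate 3. H2-Aa missed the threshold without replicate 1 (log2 fold change -0.53, adjusted p = 0.066) and was under 1.5-fold without replicate 2 (-0.58, 0.042), and its adjusted p ran from 3.95e-12 to 1 over all alternatives, whereas H2-Ab1 passed it with any one replicate number left out and missed it with the sets pooled (adjusted p = 0.0973 and 0.878 with and without a term for the set). All 9 genes were also lower in the libraries labelled 65–79*SE with IFNγ, replicates 4–6 (8.10% of all genes were called lower), by 2.68 on the log2 scale for Cd74 (standard error 0.10) and 3.25 (0.13) for H2-DMa. The summed level of the IFNγ response genes in those libraries was below that of PBS in the same set, and no comparison of the peptides is read from this. The difference between the sets in this comparison passed for 9 of 9 genes, against 10.6% of all genes. The result for the peptides under IFNγ thus rests on replicates 1–3 alone, and its p-values do not cover the spread between the sets. With 65–79*PE, mean H2-Aa was 827 CPM in replicates 1–3 and 473 CPM in replicates 4–6. Mean H2-Ab1 was 555 and 632 CPM in the same groups.

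**Figure D3:**
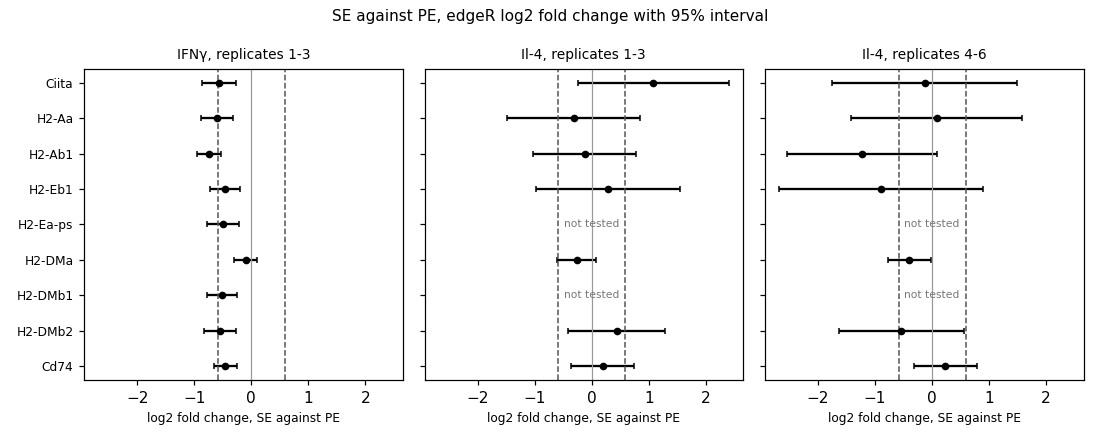
Log2 fold change of 65–79*SE (SE) against 65–79*PE (PE) for each gene, with the 95% interval from edgeR, for IFNγ replicates 1–3 and both sets of the Il-4 table. Dashed lines mark 1.5-fold in either direction. Under IFNγ all points are below 0 and only the interval of H2-DMa crosses it. Under Il-4, the intervals of 7 genes cross 0 in replicates 1–3 and those of all but H2-DMa do in replicates 4–6.

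Levels per kilobase of transcript (CPM per kb) set the genes against each other with a correction for length only. Reads lost through the MHC haplotype of the line, or between H2-DMb1 and H2-DMb2, could alter the order below, and this was not tested. With PBS, Cd74 was at 537 CPM per kb and H2-DMa at 2.31 in replicates 1–3 of the IFNγ table, and no other of the 9 genes exceeded 0.479. With 65–79*SE the order was Cd74 (2109), H2-Aa (484), H2-Eb1 (406), H2-Ab1 (273), H2-Ea-ps (117), H2-DMb1 (35.7), H2-DMb2 (25.7), H2-DMa (19.3) and Ciita (1.48). With 65–79*PE in replicates 1–3 the order was unchanged, from Cd74 at 2891 CPM per kb and H2-Aa at 734 to Ciita at 2.19. With 65–79*PE in replicates 4–6, H2-Ab1 (521) stood above H2-Aa (420) and H2-Eb1 (371), and Ciita (4.09) was the lowest. Together the 9 genes took 0.0870% ± 0.010 (SD, n = 3) of all counts with PBS in replicates 1–3, 0.536% ± 0.026 with 65–79*SE and 0.770% ± 0.026 with 65–79*PE.

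Ratios of counts within a library show which genes kept step, since depth cancels in them. H2-Aa counts per H2-Ab1 count were 1.69, 1.55 and 1.71 with 65–79*SE and 1.49, 1.47 and 1.50 with 65–79*PE in replicates 1–3, but 0.796, 0.738 and 0.706 with 65–79*PE in replicates 4–6. The ratio of the I-A chains thus separated the sets of replicates more than the peptides. H2-Ab1 counts per Ciita count were 42.3 ± 0.75 (SD, n = 3) with 65–79*PE in replicates 1–3 and 26.3 ± 6.8 in replicates 4–6, where Ciita was higher. Cd74 counts per count of the 4 chains H2-Aa, H2-Ab1, H2-Eb1 and H2-Ea-ps had means of 1.78, 1.64 and 1.70 for 65–79*SE, 65–79*PE in replicates 1–3 and 65–79*PE in replicates 4–6. Single libraries ran from 1.51 to 1.92, both with 65–79*PE in replicates 4–6. H2-Ea-ps counts per H2-Eb1 count were 0.180, 0.184 and 0.195 in these groups, and H2-DMb1 counts per H2-DMb2 count 1.37, 1.33 and 1.37. These ratios were not tested.

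**Figure D4:**
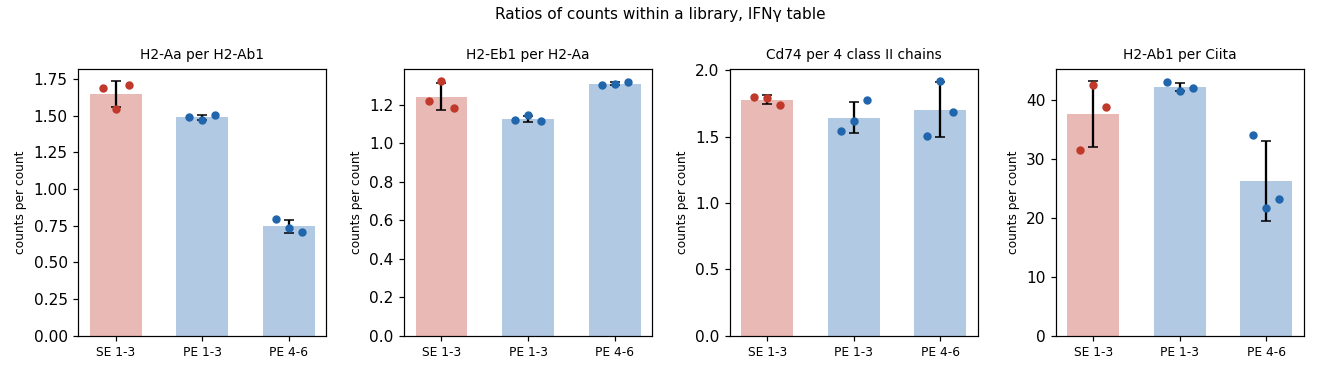
Counts of one gene per count of another within a library, in the IFNγ groups where the class II chains were high. Bars are means, error bars SD and points the 3 libraries, on linear axes from 0. H2-Aa per H2-Ab1 has a mean of 1.49 in replicates 1–3 and 0.747 in replicates 4–6 of 65–79*PE (PE). The means of Cd74 per count of the 4 class II chains lie between 1.64 and 1.78, and single libraries between 1.51 and 1.92.

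In the Il-4 table the class II chains stayed near the limit of counting, and Cd74 carried most of the signal. Cd74 was at 918, 950 and 794 CPM with PBS, 1418, 1982 and 1808 CPM with 65–79*SE and 1428, 1549 and 1577 CPM with 65–79*PE in replicates 1–3. Both peptide groups lay above PBS and overlapped each other. Pooled counts were 1.95-fold (counting interval 1.93 to 1.96) and 1.71-fold (1.69 to 1.73) those of PBS. These intervals leave out the spread between libraries, and the test below called Cd74 with 65–79*SE only. In replicates 4–6 Cd74 was at 178, 345 and 406 CPM with PBS, 345, 394 and 607 with 65–79*SE and 273, 371 and 507 with 65–79*PE, and the 3 groups overlapped. H2-Ab1 was at 0.0403, 0.160 and 0.0372 CPM with PBS, 1.14, 0.780 and 1.01 CPM with 65–79*SE and 1.52, 0.818 and 0.839 CPM with 65–79*PE in replicates 1–3. Every peptide library was above every PBS library, which 12.8% of all genes showed with 65–79*SE and 13.6% with 65–79*PE. H2-Aa was at 0.0403, 0 and 0.0372 CPM with PBS, 1.06, 0.650 and 0.461 CPM with 65–79*SE and 1.55, 0.516 and 0.629 CPM with 65–79*PE. In pooled counts it was 28.3-fold (7.46 to 240) and 35.5-fold (9.46 to 299) above PBS, from 2 counts with PBS.

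Of the 9 genes, 7 passed the filter on low counts in this table, with 14183 genes tested, and H2-Ea-ps and H2-DMb1 did not. With 65–79*SE against PBS in replicates 1–3, 3 of these 7 rose: H2-Aa by a log2 fold change of 4.56 (standard error 0.95, adjusted p = 0.00711), H2-Ab1 by 3.56 (0.62, 0.00204) and Cd74 by 0.97 (0.26, 0.0226), against 1.97% of all genes called higher. With 65–79*PE against PBS, 2 rose: H2-Aa by 4.87 (0.92, adjusted p = 0.00650) and H2-Ab1 by 3.68 (0.62, 0.00208), against 1.52% of all genes. Cd74 had a log2 fold change of 0.77 there (0.26, adjusted p = 0.082). Leaving out 1 replicate number changed these counts: they were 1 and 1 without replicate 2, and 0 and 0 without replicate 3. Ciita was at 0.912, 0.434 and 0.712 CPM with 65–79*SE, against 0.161, 0.240 and 0.260 with PBS and 0.531, 0.172 and 0.252 with 65–79*PE, and did not pass against PBS (adjusted p = 0.11). H2-DMa was between 6.59 and 9.15 CPM with PBS, 7.41 and 9.09 with 65–79*SE and 8.39 and 11.2 with 65–79*PE, and did not pass in either comparison (adjusted p = 0.71 and 0.18). H2-Eb1 was higher by 2.24 (standard error 0.75, adjusted p = 0.054) with 65–79*SE and 1.96 (0.77, 0.13) with 65–79*PE, and passed in neither.

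In replicates 4–6 of the Il-4 table H2-Aa was listed at 0 in all PBS libraries, at 0.179, 0.258 and 0.548 CPM with 65–79*SE and at 0.613, 0.0949 and 0.172 CPM with 65–79*PE. It was at least 6.17-fold higher with 65–79*SE (22 counts against 0, adjusted p = 0.061) and at least 5.97-fold higher with 65–79*PE (24 counts against 0, adjusted p = 0.0498). The latter was the only call in this set, against 1.26% of all genes called higher with 65–79*PE, and it was lost without any one of replicates 2, 3, 4, 5 or 6 and with another scaling. For 65–79*SE edgeR called 0 of 7 (1 at an unadjusted p under 0.05) and DESeq2 called 0 of the 2 genes to which it gave an adjusted p, against 1.23% of all genes called higher. Between the sets, edgeR called 0 of 7 genes in any of the 3 comparisons (1, 0 and 0 at an unadjusted p under 0.05), and DESeq2 called 0, with no adjusted p for 5 of the 7 in each comparison with PBS, against 3.91% of all genes for 65–79*SE and PBS, 0.00705% for 65–79*PE and PBS and 0% for the peptides.

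Under Il-4 no difference between the peptides was detected. edgeR called 0 of 7 class II genes and 0% of all genes in either set, DESeq2 called 0 of 7, with 0 of the 7 at an unadjusted p under 0.05 in replicates 1–3 and 1, H2-DMa, in replicates 4–6. The log2 fold change of 65–79*SE against 65–79*PE in replicates 1–3 was 0.19 for Cd74 (95% interval -0.36 to 0.74), -0.27 for H2-DMa (-0.61 to 0.08), -0.12 for H2-Ab1 (-1.02 to 0.78), -0.31 for H2-Aa (-1.48 to 0.85) and 1.08 for Ciita (-0.24 to 2.40). All 5 intervals reach past 1.5-fold in at least one direction. In replicates 4–6 it was -0.40 for H2-DMa (-0.78 to -0.03, adjusted p = 0.51), which was at 3.13, 3.35 and 4.24 CPM with 65–79*SE and 4.63, 4.33 and 5.21 CPM with 65–79*PE. Every 65–79*SE library was below every 65–79*PE library, as for 8.33% of all genes. For H2-Ab1 it was -1.23 (-2.54 to 0.09, adjusted p = 0.58), and the intervals of the other 5 genes also crossed 0.

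**Figure D5:**
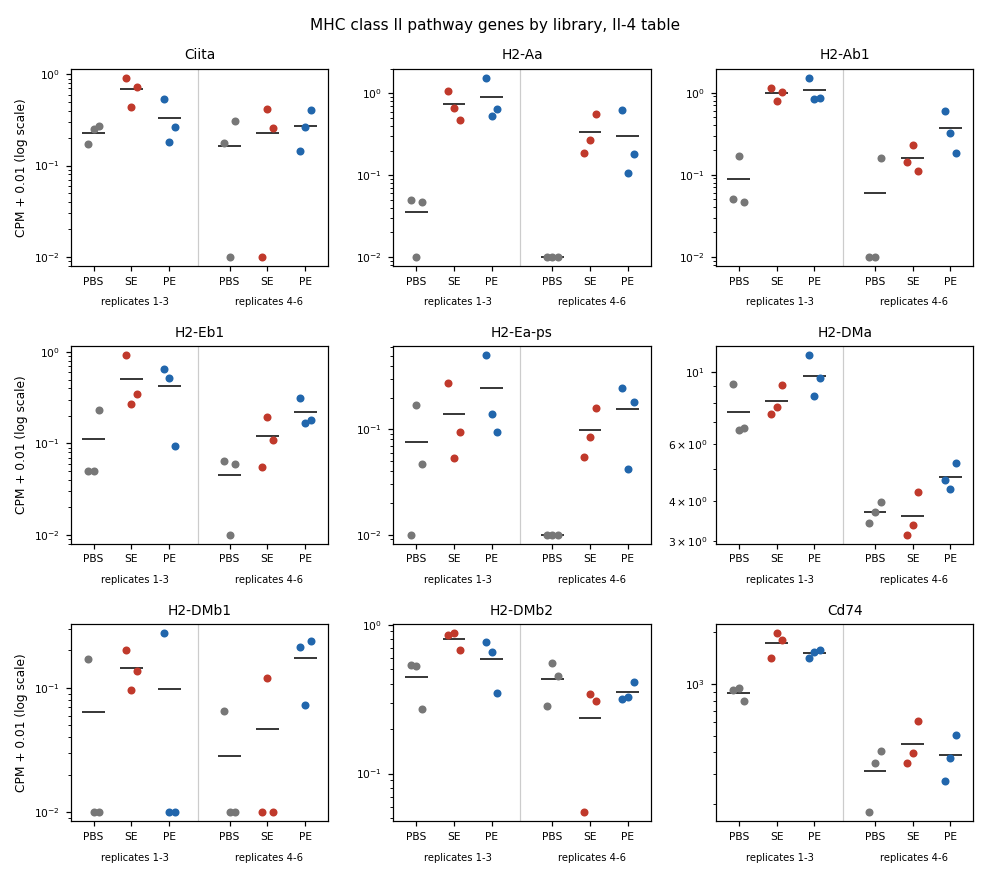
Level of each of the 9 genes in the 18 libraries of the Il-4 table, drawn as for IFNγ, with CPM plus 0.01 on a log scale and lines at the means of 3 libraries. Cd74 and H2-DMa are above 1 CPM in every library, while the other 7 genes stay at or below 1.55 CPM. H2-Aa, H2-Ab1 and Cd74 lie above PBS in every peptide library of replicates 1–3.

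The response to each peptide group was then compared between the tables in 1 model of all 36 libraries (17201 genes tested), by the difference of the log2 fold changes against PBS. In replicates 1–3 the rise with 65–79*SE was larger in the IFNγ table for 8 of 9 genes, against 9.37% of all genes, from 0.94 for Cd74 (standard error 0.29, adjusted p = 0.0163) and 2.89 for H2-DMa (0.19) to 10.75 for H2-Ea-ps (1.9). The rise with 65–79*PE was larger for 8 of 9 in replicates 1–3, against 6.69%, with 1.64 for Cd74 (0.30), and for 6 of 9 in replicates 4–6, against 5.80%, with 1.82 for Cd74 (0.30) and 8.66 for Ciita (1.2). H2-Aa did not pass in replicates 1–3 (adjusted p = 0.0504 and 0.0583), where it had 2 counts over the PBS libraries of the Il-4 table. In replicates 4–6 H2-Aa and H2-Ea-ps had 0 counts over the PBS libraries of the Il-4 table. Their differences with 65–79*PE there gave standard errors of 119 and 209. These come from dividing by the square root of a very small F statistic and do not measure a spread. The missed calls do not show a smaller rise. In the libraries labelled 65–79*SE with IFNγ, replicates 4–6, 1 gene differed, Cd74, which was lower by 1.03 (0.29, adjusted p = 0.0325) against 2.61% of all genes, and this call was lost without replicate 5 or 6.

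Other genes of the pathway were counted from lists made with earlier results in view. Of 9 transcription factors of the class II promoter and of Ciita (Rfx5, Rfxank, Rfxap, Nfya, Nfyb, Nfyc, Creb1, Irf1 and Usf1), 1 rose with 65–79*SE and IFNγ in replicates 1–3, which was Irf1, an activator of Ciita, by 2.16 (standard error 0.076), against 11.0% of all genes called higher. Irf1 also rose with 65–79*PE in replicates 1–3, by 2.80 (0.077), and in replicates 4–6, by 3.06 (0.077), as the 1 of 9 in each, against 8.38% and 6.40% of all genes. Nfya, a subunit of the Y box factor, fell with 65–79*PE in replicates 1–3 by 0.65 (0.076), against 10.1% of all genes called lower. These counts are near the shares over all genes. Irf1 was lower with 65–79*SE than with 65–79*PE in replicates 1–3, by 0.63 (0.070). None of the 9 was called by edgeR in the libraries labelled 65–79*SE with IFNγ, replicates 4–6, against PBS (1 at an unadjusted p under 0.05), or in any comparison within the Il-4 table (0 to 3 at an unadjusted p under 0.05).

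H2-Oa and H2-Ob, the chains of H2-O, an inhibitor of H2-DM, also rose, at far lower levels. In replicates 1–3, H2-Oa was at 0.282 ± 0.12 CPM (SD, n = 3) with PBS, 1.07 ± 0.29 with 65–79*SE and 1.70 ± 0.34 with 65–79*PE. H2-Ob was at 0.0291 ± 0.028, 0.743 ± 0.15 and 1.20 ± 0.27 CPM in the same groups. Both passed with either peptide in replicates 1–3 and with 65–79*PE in replicates 4–6, against 11.0%, 8.38% and 6.40% of all genes called higher. Neither passed between the peptides in replicates 1–3, where 1.23% of all genes were called lower with 65–79*SE. H2-Eb2, listed with them, did not pass the filter on low counts. In replicates 1–3 it was at 0 CPM with PBS, 0.192 with 65–79*SE and 0.338 with 65–79*PE. H2-Ob was listed at 0 in the 3 libraries labelled 65–79*SE with IFNγ, replicates 4–6. Of 9 genes of antigen processing, 1 rose under IFNγ with either peptide in replicates 1–3 and with 65–79*PE in replicates 4–6, against 11.0%, 8.38% and 6.40% of all genes, so the counts are near those shares. It was Ctsh, which encodes cathepsin H, by 1.29 (standard error 0.13), 1.53 (0.13) and 2.94 (0.15). In the libraries labelled 65–79*SE with IFNγ, replicates 4–6, Ctsh was above PBS by 0.68 (0.18, adjusted p = 0.0377), and no peptide effect is read from this. Lgmn, which encodes the endosomal protease legumain, was higher with 65–79*SE than with 65–79*PE in replicates 1–3, by 0.60 (0.11), as 1 of 9 against 4.10% of all genes called higher.

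Of 3 genes tested among those that act on class II or Cd74 at the cell surface, Cd44, a partner of Cd74, and Cd83, which keeps class II at the surface, rose with 65–79*SE in replicates 1–3, by 1.23 (standard error 0.080) and 1.18 (0.15), against 11.0% of all genes. Against PBS with 65–79*PE, Cd44 was at 0.54 (0.080), under 1.5-fold, and Cd83 at -0.24 (0.15), and neither was called there. In replicates 1–3 the direct comparison of the peptides passed for both, with 0.69 (0.079) for Cd44 and 1.42 (0.15) for Cd83 higher with 65–79*SE (4.10% of all genes were called higher). This is opposite in direction to the class II genes and rests on replicates 1–3 alone. For Cd83, 65–79*PE against PBS differed between the sets and was higher in replicates 4–6, as 1 of 3 genes against 5.74% of all genes. Within replicates 4–6, 0 of 3 were called with 65–79*PE, against 6.40% of all genes called higher. Of 5 genes of the IFNγ receptor pathway, Socs1, a feedback inhibitor of JAK kinases, rose with either peptide under IFNγ in replicates 1–3, by 1.83 (0.34) and 2.27 (0.33), and under Il-4 in replicates 1–3, by 2.42 (0.30) and 2.40 (0.30). Jak1, a kinase of the receptor, rose with 65–79*SE in replicates 1–3 by 0.66 (0.088), and Ifngr2, a chain of the receptor, fell with 65–79*PE by 0.61 (0.069). Under IFNγ in replicates 1–3 that made 2 of 5 higher with 65–79*SE, and 1 higher and 1 lower with 65–79*PE, against 11.0%, 8.38% and 10.1% of all genes. Under Il-4 it was 1 of 5 with each peptide, against 1.97% and 1.52%. Between the peptides under IFNγ in replicates 1–3, 1 of 5 was called, Jak1, with 65–79*SE above by 0.79 (0.089). In the same libraries the 10 IFNγ response genes summed to 535 to 616 CPM with 65–79*SE and 428 to 466 CPM with 65–79*PE. The order of these sums was opposite to that of the class II genes, but not each of the 10 followed it. The most abundant genes weigh most in a sum. Irf1, of the 10, was lower with 65–79*SE than with 65–79*PE, as the class II genes were. Socs1, at 1.83 and 2.27 against PBS, had the same order without a call between the peptides.

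The genes whose log2 levels over the 18 libraries followed the mean of H2-Aa, H2-Ab1, H2-Eb1 and Cd74 most closely were, under IFNγ, C1ra (Pearson's r = 0.999), Psme1 (0.998), Ly6a (0.995), Tcp11x2 (0.994) and Plbd1 (0.994). Under Il-4 they were Anxa1 (0.962), F10 (0.947), Ccl6 (0.945), Itgax (0.935) and Il20rb (0.934). The 18 points fall into groups with high and low levels, so r describes this contrast and carries no p.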

How the data were processed

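RNA from RAW264.7 cells was sequenced in 36 libraries. The authors deposited raw read counts per gene, whole numbers from featureCounts on uniquely aligned single-end reads with GENCODE annotation (GRCm38.p5, DESeq2 1.16.1 and R 3.4.1 in the submitters' processing notes). The aligner and the strand setting of the counting are not given in the sources used here, so overlapping and antisense genes could not be separated. All sample columns were mapped to labels. Spreadsheet software had turned 26 row names into dates, so March1 and March8 were not analysed here.

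Counts were analysed in R 4.3.3 with edgeR 4.0.16: genes filtered with filterByExpr, libraries scaled by TMM, 1 mean per group and set of replicates, the quasi-likelihood test and Benjamini-Hochberg adjustment. A call was an adjusted p under 0.05 and a change over 1.5-fold, as in the study's methods. Folds against groups at 0 used a floor of 3 counts. CPM were counts over the TMM-scaled library total, and CPM per kb used transcript length. The script was tested on simulated data. The members and lists were chosen with earlier results of these data known, and a few genes that are not reported here were taken out of the lists before any sum or count. Besides the 9 genes, values are given for some genes of the other pathway lists that were called in at least 1 comparison, and not for all such genes. Under Il-4 in replicates 4–6, for example, Ctss was called higher with 65–79*PE and Jak2 with 65–79*SE, each against PBS. The 5 most alike per table had the highest Pearson's r. No pair of libraries of the same group and set was a duplicate, with a lowest chi-square per degree of freedom of 5.25, and other pairs were not checked. Deviations of same-numbered libraries from their means correlated over 0.1 in all 3 pairs of the peptides in Il-4 replicates 1–3 (0.143 to 0.389) and of PBS and 65–79*PE in Il-4 replicates 4–6 (0.190 to 0.395), and in no other comparison, so the numbers pair the samples there by the data and not by the labels. Alternatives were DESeq2 1.42.0, RLE scaling, no filter, a replicate block, each replicate number left out, the sets fitted alone or pooled, Rn7s1 and Rn7s2 taken out, and H2-DMb1 and H2-DMb2 summed.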

Additional observations from a re-analysis of the deposited data

Results flagged for a closer look

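Of 54 groups of 6 libraries, with both sets together, 5 held a library far from the other 5. All 5 were in the Il-4 table at or below 1.55 CPM. For normally distributed values the rule would flag about 1 group in 20. CPM near 0, or from both sets together, need not be so distributed, so that rate is no yardstick here. H2-Eb1 was at 0.223 CPM in the PBS group of the Il-4 table, replicate 3, with the next library at 0.0549. H2-Ea-ps was at 0.160 CPM in the PBS group of the Il-4 table, replicate 2, with the next at 0.0372. H2-DMb1 was at 0.161 CPM in the PBS group of the Il-4 table, replicate 1, with the next at 0.0549. H2-Eb1 was at 0.912 CPM with 65–79*SE and Il-4, replicate 1, with the next at 0.335. H2-Aa was at 1.55 CPM with 65–79*PE and Il-4, replicate 1, with the next at 0.629.

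Effects that differed between groups by a test of the difference were these. In the libraries labelled 65–79*SE with IFNγ, replicates 4–6, which went against their label, the comparison with PBS differed from that in replicates 1–3 for 9 of 9 genes, and the comparison with 65–79*PE for 9 of 9, and no peptide effect is read from either. The comparison of 65–79*SE with PBS differed between the IFNγ and Il-4 tables for 8 genes in replicates 1–3 and, with those libraries, 1 gene in replicates 4–6. That of 65–79*PE with PBS differed for 8 genes in replicates 1–3 and 6 in replicates 4–6.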

How the results depend on the processing

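Of 328 alternative counts over 23 comparisons, 282 stayed within 1.5 times the value given and 46 did not, and none reversed. Shares over all genes were not computed for the alternatives, so their counts are set only against the count given. Of 1204 alternative values of single genes, 1147 kept their direction and call and 57 lost the call. The rise of 9 of 9 genes under IFNγ with 65–79*SE in replicates 1–3, and with 65–79*PE in both sets, kept its count of 9 with any one replicate number left out.

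With DESeq2, which gave 5 of the 7 genes no adjusted p there, the count was 1 for each peptide against PBS under Il-4 in replicates 1–3, 2 for 65–79*PE there in replicates 4–6 (2 of the 7 with no adjusted p), 2 for the libraries labelled 65–79*SE with IFNγ between the tables in replicates 4–6, and 2 for 65–79*PE between the sets under IFNγ. With RLE scaling the 65–79*PE count under Il-4 in replicates 4–6 was 0, and with the set fitted alone it was 0, as was the 65–79*SE count between tables in replicates 4–6. Without the filter on low counts, counts were 5 and 1 for 65–79*SE under Il-4 in replicates 1–3 and 4–6, 2 for 65–79*PE in replicates 4–6, 2 for 65–79*SE between the tables in replicates 4–6 and 2 for 65–79*PE between the sets under IFNγ. The cause was not tested.

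Pooling the sets mixes the libraries labelled 65–79*SE with IFNγ, replicates 4–6, with the others. Pooled with a term for the set, 8 genes were called for 65–79*SE against PBS under IFNγ and 4 for the peptides against each other (4 at an adjusted p under 0.05 whatever the fold), and under Il-4, against PBS, 3 for 65–79*SE and 2 for 65–79*PE. Pooled without it, the counts under IFNγ were 6 and 0 (0 whatever the fold) and under Il-4 1 for each peptide. With those 3 libraries left out of the fit, an alternative chosen after seeing the data, the counts in replicates 1–3 under IFNγ were 9, 9 and 2, and 8 were lower whatever the fold.

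With one replicate number left out, the counts ran from 1 to 5 for the peptides under IFNγ in replicates 1–3 (3 to 8 whatever the fold), 0 to 1 for the libraries labelled 65–79*SE with IFNγ, replicates 4–6, against PBS (1 without replicate 4), and 0 to 1 for 65–79*PE between the sets (1 without replicate 4). Under Il-4 they ran from 0 to 3 for either peptide in replicates 1–3 and 0 to 1 for 65–79*PE in replicates 4–6. Between the tables they ran from 5 to 9 (5 without replicate 2) and 0 to 2 for 65–79*SE in replicates 1–3 and 4–6, and from 6 to 9 and 4 to 6 for 65–79*PE.

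Correlations of same-numbered libraries' deviations were over 0.1 in 1 of 9 pairs in each set under IFNγ and in 6 of 9 in each set under Il-4. In the 2 Il-4 comparisons where all 3 pairs were, a replicate block left the counts at 0 for the peptides in replicates 1–3 and 1 for 65–79*PE against PBS in replicates 4–6 (H2-Aa, adjusted p = 0.0202). Elsewhere at least 1 pair was below 0.1. In some of those comparisons each library still correlated best with its own number, as for PBS and 65–79*SE in Il-4 replicates 1–3 (0.0988 to 0.264). In the rest not every library did. A replicate block moved the Il-4 count for 65–79*SE from 0 to 1 in replicates 4–6, and from 0 to 1 for its difference between the sets, and moved no other count by over 1.5 times. The Il-4 results are limited by the few counts per library of most class II genes, and the part of depth in this was not tested.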
